A study of Mus musculus with 4 samples.

Results

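The genes that carry out fatty acid oxidation in mitochondria and peroxisomes were followed in testes of Lhcgr knockout (KO) and control wild-type (WT) mice. A list of 39 genes, chosen with earlier results of these data known, was matched to the arrays by gene symbol. Of these, 38 had a probe set annotated to that gene alone, out of 19938 genes measured. Cpt1b, which encodes the muscle form of carnitine palmitoyltransferase 1, had only a probe set shared with other genes and is not reported. The measured genes comprised 17 of mitochondria, 17 of peroxisomes and 4 whose products are found in both or lie elsewhere, namely Cpt1c, Eci2, Amacr and Crat. Where a gene had several probe sets, the one with the highest mean was used.

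Lhcgr encodes the receptor through which luteinizing hormone drives androgen synthesis in Leydig cells. There were 2 KO and 2 WT samples of whole-testis total RNA, each on a 1-colour Affymetrix array. All animals, WT included, had received busulfan, an alkylating drug that kills most germ cells, at 44 mg/kg, and were killed 4 weeks later. The labels state neither strain, age nor the Lhcgr allele, and do not tell whether replicates were separate animals. The p-values therefore rest on a spread that may be technical.

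Array medians lay between 207.8 and 215.1 intensity units in KO and between 198.3 and 205.9 in WT. With so few arrays every estimate is imprecise. The tissue label was checked on Sertoli cell markers, whose summed intensity was 63701 and 67789 in KO against 67235 and 62934 in WT. Single markers did differ. Of 19, 1 was higher past the test (Amh, log2 fold change 0.80) and 1 lower (Trf, -2.29). These are shares of 5.26% each, against 0.963% and 2.14% of all genes. On both KO arrays 10 lay higher and 3 lower, against 36.8% and 22.4% of all genes. Adult Leydig cell markers summed to 7719 and 5957 in KO, against 31631 and 16942 in WT. Of 13, 7 were lower past the test, a share of 53.8% against 2.14% of all genes. Hsd3b1 (log2 fold change 0.20) and Hsd11b1 (0.06) overlapped between the groups. Macrophage markers summed to 8908 and 9577 in KO, against 14287 and 15932 in WT, with 5 of 16 lower past the test (31.2%). Markers of epididymis and rete testis summed to 1853 and 1952 in KO and 1830 in WT replicate 1, but 14493 in WT replicate 2, which therefore stands apart. Among these 16 markers 1 was lower past the test (Epcam, log2 fold change -2.06), a share of 6.25%. Spermatocyte and spermatid markers summed to 2182 and 2287 in KO and to 3111 and 2220 in WT. Of 16, 1 was lower past the test (Hspa2), a share of 6.25% against 2.14% of all genes. Adipocyte markers summed to 2478 and 2616 in KO and 2685 and 2458 in WT. Of 11 adipocyte markers, none passed the test. On both KO arrays 6 of them lay higher and 3 lower, against 36.8% and 22.4% of all genes. The log2 fold change of KO over WT was 0.65 for Lpl (limma adjusted p = 0.0730) and 0.57 for Plin1 (adjusted p = 0.0861). It was -0.34 for Pnpla2 (adjusted p = 0.177), so these markers did not move together. Their part in the results was not tested. None of these markers was listed at 0. Lhcgr itself is not analysed here, and the genotype of the samples rests on their labels. In whole testis, fewer cells of a type and less RNA per cell cannot be told apart.

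Fatty acids are activated to acyl-CoA esters and carried into mitochondria as carnitine esters, where rounds of dehydrogenation, hydration, a further dehydrogenation and thiolytic cleavage shorten the chain. Peroxisomes run the same chemistry with oxidases in place of the first dehydrogenases, and act on very-long-chain and branched fatty acids and on bile acid precursors, handing shortened chains to mitochondria. Peroxins build the organelle and import its enzymes. Leydig cells are rich in peroxisomes, and Sertoli cells oxidise lipid from engulfed germ cell remnants.

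Promoter sequences are shown for the 4 genes with the lowest p-values, and for the stretch shared by Hadha and Hadhb, whose products form 1 enzyme complex. They come from RefSeq on GRCm38.p6, in windows of 250 bases before and 50 after an annotated start, written 5′ to 3′. The arrays' probe sets refer to mm9, per the submitters' processing notes. Capitals mark GGGCGG, the GC box that Sp1-type factors bind, on either strand.

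Scp2, chr4:108118498-108118797, minus strand: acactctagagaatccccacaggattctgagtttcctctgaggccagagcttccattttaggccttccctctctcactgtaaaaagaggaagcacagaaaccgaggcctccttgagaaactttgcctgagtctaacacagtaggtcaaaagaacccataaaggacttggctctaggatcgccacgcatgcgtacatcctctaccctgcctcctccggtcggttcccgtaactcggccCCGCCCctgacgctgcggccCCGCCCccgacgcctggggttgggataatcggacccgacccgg
Pex5, upstream start, chr6:124415806-124416105, minus strand: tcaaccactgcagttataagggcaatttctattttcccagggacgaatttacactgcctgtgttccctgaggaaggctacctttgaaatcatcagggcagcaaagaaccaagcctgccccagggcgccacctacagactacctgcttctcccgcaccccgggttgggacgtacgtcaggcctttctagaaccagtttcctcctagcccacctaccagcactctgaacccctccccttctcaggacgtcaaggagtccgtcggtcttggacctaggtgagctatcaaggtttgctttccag
Pex5, downstream start, chr6:124415018-124415317, minus strand: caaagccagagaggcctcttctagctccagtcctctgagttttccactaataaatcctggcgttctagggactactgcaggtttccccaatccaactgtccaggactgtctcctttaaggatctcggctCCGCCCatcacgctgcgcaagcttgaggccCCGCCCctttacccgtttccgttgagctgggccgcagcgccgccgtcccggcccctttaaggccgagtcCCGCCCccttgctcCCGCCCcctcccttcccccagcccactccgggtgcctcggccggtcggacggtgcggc
Pex11a, chr7:79743082-79743381, minus strand: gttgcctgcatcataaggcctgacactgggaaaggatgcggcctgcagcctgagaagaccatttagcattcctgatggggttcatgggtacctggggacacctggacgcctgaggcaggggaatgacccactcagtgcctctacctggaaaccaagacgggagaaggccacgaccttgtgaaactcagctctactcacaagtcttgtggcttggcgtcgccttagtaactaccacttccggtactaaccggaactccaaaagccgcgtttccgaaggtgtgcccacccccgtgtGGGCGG
Acox3, chr5:35582784-35583083, plus strand: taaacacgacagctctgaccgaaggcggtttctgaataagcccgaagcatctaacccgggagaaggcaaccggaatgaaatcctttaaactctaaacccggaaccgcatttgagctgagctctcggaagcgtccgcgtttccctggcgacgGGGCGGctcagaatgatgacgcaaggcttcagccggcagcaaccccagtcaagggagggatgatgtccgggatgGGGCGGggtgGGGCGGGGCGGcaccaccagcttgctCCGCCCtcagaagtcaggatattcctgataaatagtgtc
Hadha and Hadhb, shared stretch, chr5:30155003-30155230, plus strand: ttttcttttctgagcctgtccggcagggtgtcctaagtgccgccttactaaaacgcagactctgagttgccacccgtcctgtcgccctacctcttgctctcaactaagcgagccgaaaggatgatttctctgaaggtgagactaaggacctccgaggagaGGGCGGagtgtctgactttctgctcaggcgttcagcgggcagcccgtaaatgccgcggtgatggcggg

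GGGCGG occurred once or more in the windows of 24 of the 31 measured genes with a promoter in the table (77.4%), against 38.2% of all 27025 genes. Those 27025 include genes not measured on the arrays and were not matched to the 31 for expression, so the shares compare unlike sets. It was found in 12 of 15 mitochondrial and 10 of 14 peroxisomal genes, and Hadha and Hadhb share a match. The nuclear receptor half-site AGGTCA, on either strand, occurred in 7 of 31 (22.6%), against 18.13% of all genes, and among the printed windows Scp2 holds 1. The spaced repeat AGGTCANAGGTCA, which PPAR and RXR bind, occurred in 0 of 31 genes, against 0.05% of all. The extended half-site TCAAGGTCA, which SF-1 and estrogen-related receptors bind and which contains AGGTCA, occurred in 0 of 31, against 0.47% of all. These matches describe letters in a short window and not binding.

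In KO testes the peroxisomal genes Scp2 and Pex5 fell, and none of the 38 genes rose. Scp2 was 1.92-fold and Pex5 1.52-fold lower. Of all genes, 2.14% were called lower and 0.963% higher (limma, Benjamini-Hochberg adjusted p under 0.05 over 19938 genes), against 5.26% of these 38 called lower and 0 called higher. No mitochondrial gene passed the test.

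Whether or not they passed, both KO arrays lay below both WT arrays in 22 of the 38 genes (57.9%), against 22.4% of all genes, and above them in 2, Hadha and Acox2, against 36.8% of all genes. At an unadjusted p under 0.05, 13 of the 38 were lower (34.2%), against 9.78% of all genes, and 0 were higher, against 12.9%. The median log2 fold change of KO over WT was -0.15 for the 38 genes and 0.07 for all genes. The 38 genes were brighter than most, with a median level of 9.49 log2 units against 7.82. The values for all genes are not matched for level. Because the list was chosen with earlier results of these data known, these shares are not a test of it. With the lowest 25% of genes left out, the median of all genes was 0.02. In that fit it was -0.14 for the mitochondrial and -0.24 for the peroxisomal genes. With all genes kept, the medians of both compartments lay close together, at -0.14 for the mitochondrial and -0.15 for the peroxisomal genes. After quantile normalization these medians were -0.0815 and -0.0767, against 0.0345 for all genes. The changes ran from -0.44 to 0.06 among mitochondrial genes and from -0.94 to 0.25 among peroxisomal genes. The difference between the compartments was not tested.

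**Figure D1:**
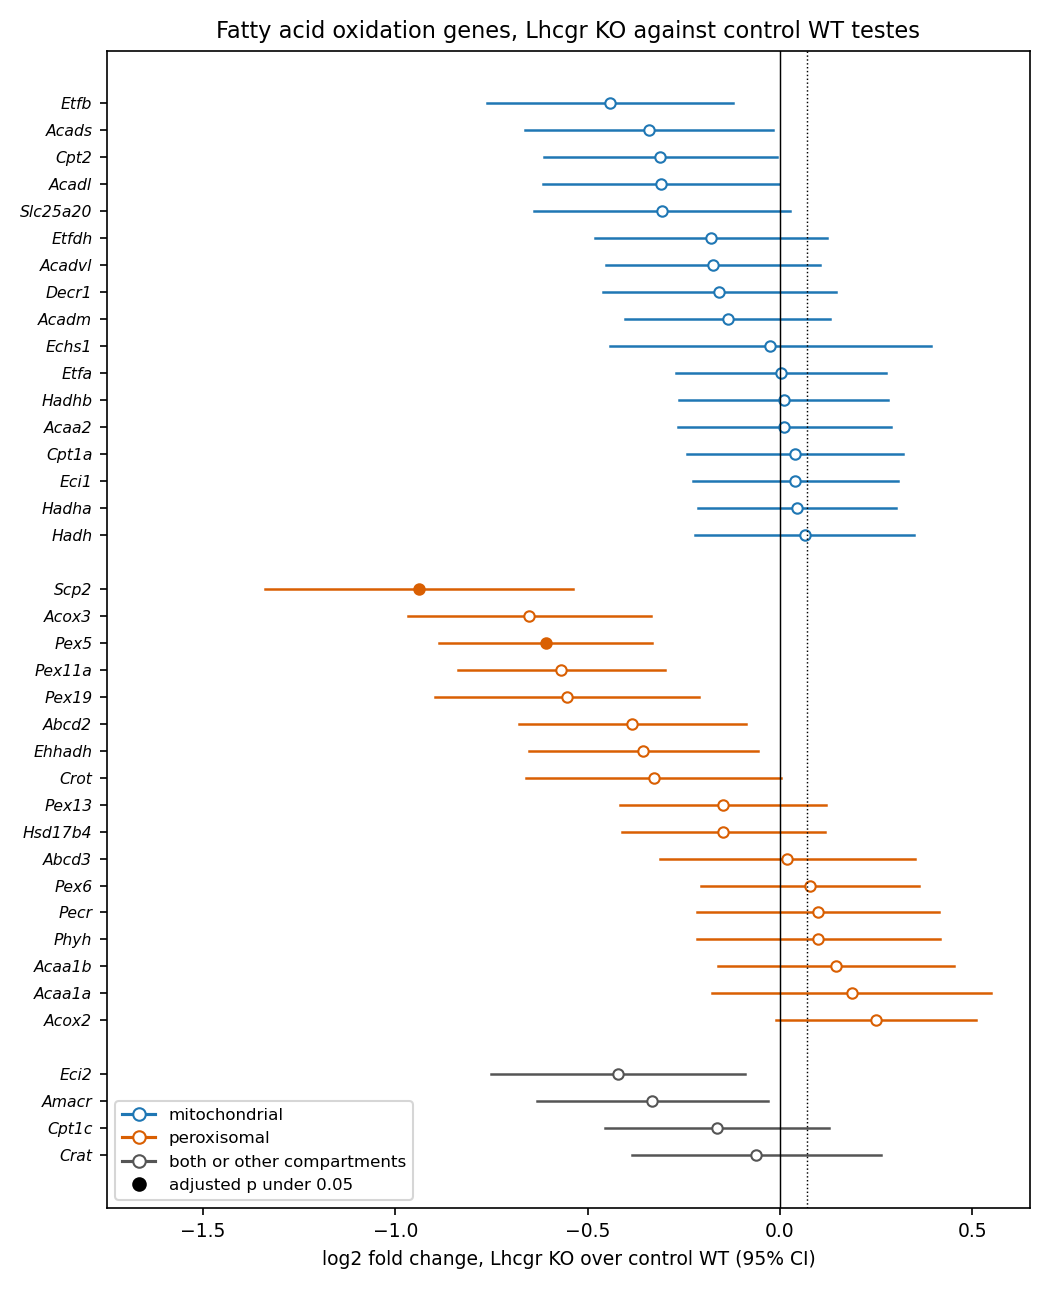
Log2 fold change of KO over WT for each measured gene (x axis), with lines for the 95% confidence interval from limma and rows grouped by compartment. Filled circles passed the adjusted threshold, and the dotted line is the median of all genes (0.07). Scp2 (-0.94) and Pex5 (-0.61) are the filled circles, and all mitochondrial genes lie between -0.44 and 0.06.

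Scp2 encodes both the thiolase that cleaves branched-chain acyl-CoA in peroxisomes and the lipid-binding sterol carrier protein 2, from different starts of the same gene. Its log2 intensity was 6.86 and 7.25 in KO, against 8.12 and 7.87 in WT (probe set 10514956, chromosome 4). Both KO arrays were lower than both WT arrays, with a log2 fold change of -0.94 ± 0.17 (SE, n = 2 per group, limma adjusted p = 0.0383). The fold was 1.92 with a 95% confidence interval of 1.45 to 2.53. The probe set does not separate the products.

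Pex5 encodes the receptor that recognises the C-terminal import signal of most matrix enzymes of the peroxisome. It measured 8.47 and 8.57 in KO, against 9.07 and 9.19 in WT, on the log2 intensity scale. The groups did not overlap, and the spread within each was small beside the gap (log2 fold change -0.61 ± 0.12, limma adjusted p = 0.0476). Neither call held when a KO array was left out: without replicate 1 the adjusted p was 0.194 for Scp2 and 0.204 for Pex5, and without replicate 2 it was 0.140 and 0.219. Pex5 also lost its call without WT replicate 2, the array with epididymal signal (-0.55, adjusted p = 0.130), and after quantile normalization (adjusted p = 0.0711), while Scp2 kept its call in both cases. With 16, the floor of the deposited values, subtracted before log2, neither passed (adjusted p = 0.0644 for Scp2 and 0.0754 for Pex5). The part of the Leydig cell and macrophage markers, which fell alongside, was not tested.

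**Figure D2:**
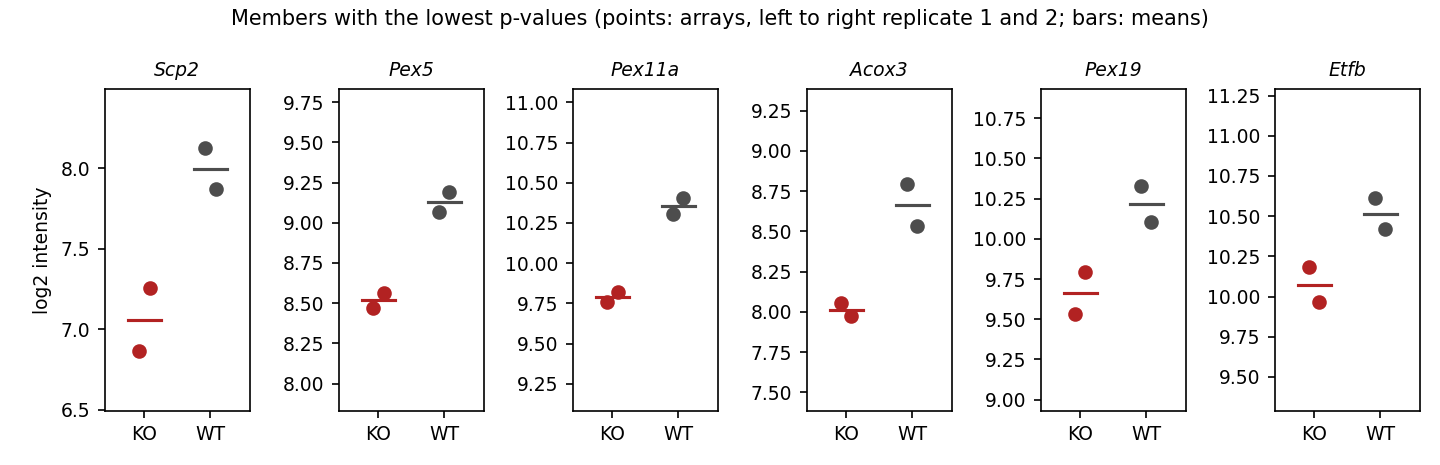
Log2 intensity (y axis) on each array for the 6 genes with the lowest p-values, KO left and WT right in each panel, with bars for group means. All y axes span the same number of log2 units but start at different levels. In each of the 6 genes both KO arrays lie below both WT arrays.

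The other peroxins differed among themselves. Pex11a, which promotes division of peroxisomes, measured 9.76 and 9.82 log2 intensity units in KO, against 10.31 and 10.41 in WT. Its log2 fold change of -0.57 ± 0.11 did not pass the test (adjusted p = 0.0529), though it did in 5 of 13 alternatives, such as with each array centred on its median (adjusted p = 0.0480). Pex19, the chaperone of newly made peroxisomal membrane proteins, measured 9.53 and 9.79 in KO, against 10.33 and 10.11 in WT (log2 fold change -0.55 ± 0.14, adjusted p = 0.104). In these 2 genes, as in Pex5, each KO value was below each WT value. Pex13, part of the docking complex for Pex5, had a log2 fold change of -0.15 (95% confidence interval -0.42 to 0.12). Pex6, an ATPase that returns Pex5 to the cytosol, had one of 0.08 (-0.21 to 0.36). The 5 peroxins had a median log2 fold change of -0.55, but 8 further measured peroxins had one of -0.10 (range -0.39 to 0.30) and none of these passed. The median over all genes was 0.07.

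The peroxisomal acyl-CoA oxidases, which catalyse the first step and release hydrogen peroxide, had KO values on opposite sides of WT, and neither passed the test. Acox3, which in mice acts on branched chains, measured 8.05 and 7.97 in KO, against 8.80 and 8.53 in WT. Its log2 fold change of -0.65 ± 0.13 had an adjusted p of 0.0570, and it passed in 5 of 13 alternatives, among them the fit without WT replicate 2 (-0.78, adjusted p = 0.0325). Acox2, which oxidises bile acid precursors, measured 7.23 and 7.28 in KO, against 7.01 and 7.01 in WT. Both KO arrays exceeded both WT arrays, by 0.25 ± 0.11 on the log2 scale (adjusted p = 0.233). The log2 difference of Acox3 minus Acox2 within each array was 0.82 and 0.69 in KO and 1.79 and 1.52 in WT. Its lack of overlap follows from the opposite order of both genes and adds nothing to it.

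Of the later peroxisomal enzymes only Scp2 passed the test. Ehhadh, the L-bifunctional enzyme of straight chains, measured 6.90 and 6.76 in KO, against 7.28 and 7.10 in WT. The groups did not overlap, but the log2 fold change of -0.35 ± 0.12 did not pass (adjusted p = 0.174). Hsd17b4, the D-bifunctional enzyme of branched chains and bile acid precursors, measured 9.46 and 9.54 in KO, against 9.65 and 9.65 in WT (log2 fold change -0.15, 95% confidence interval -0.41 to 0.12). The thiolase gene Acaa1a measured 8.59 and 8.38 in KO, against 8.46 and 8.13 in WT, and the groups overlapped (0.19 ± 0.15, adjusted p = 0.458). Its paralog Acaa1b measured 6.52 and 6.29 in KO and 6.31 and 6.21 in WT. These paralogs are near-identical, so their probe sets may share signal and their separate values are uncertain. Scp2 minus Acaa1a, both thiolase genes, was -1.73 and -1.12 in KO and -0.34 and -0.26 in WT within each array on the log2 scale. This difference follows mainly from the lower KO values of Scp2 and adds nothing to them.

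At the peroxisomal membrane, Abcd2, a half-transporter of very-long-chain acyl-CoA, measured 9.50 and 9.28 in KO, against 9.77 and 9.79 in WT. Both KO arrays were lower (log2 fold change -0.38 ± 0.12, adjusted p = 0.153). Abcd3, the transporter of bile acid precursors and branched and dicarboxylic acyl-CoA, measured 10.89 and 10.99 in KO, against 10.77 and 11.07 in WT. Its groups overlapped, with a 95% confidence interval of -0.31 to 0.35 for the log2 fold change. Crot, which makes carnitine esters of shortened chains for export to mitochondria, measured 9.21 and 9.42 in KO, against 9.52 and 9.76 in WT (-0.33 ± 0.14, adjusted p = 0.224). Each KO value of Crot lay below each WT value, by a small margin. Crat, the carnitine acetyltransferase of both organelles, measured 9.61 and 9.71 in KO, against 9.86 and 9.58 in WT, with overlap.

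Branched-chain and auxiliary enzymes gave mixed values. Amacr, the racemase that makes branched chains fit for oxidation, measured 8.24 and 8.36 in KO, against 8.73 and 8.53 in WT. Its groups did not overlap (log2 fold change -0.33 ± 0.13, adjusted p = 0.196). Eci2, an enoyl-CoA isomerase of peroxisomes and mitochondria, measured 9.02 and 8.71 in KO, against 9.31 and 9.26 in WT (-0.42 ± 0.14, adjusted p = 0.158). In Eci2 too the KO arrays were the lower ones. Phyh, the hydroxylase that starts alpha-oxidation of phytanic acid, had a log2 fold change of 0.10 (95% confidence interval -0.22 to 0.42). Pecr, a peroxisomal enoyl-CoA reductase of chain elongation, also had one of 0.10 (-0.21 to 0.41). The mitochondrial isomerase Eci1 and the dienoyl-CoA reductase Decr1, which handle double bonds, had values of 0.04 and -0.16.

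In the carnitine shuttle, the entry enzyme did not differ beyond its spread, while later carriers had lower KO values that did not pass the test. Cpt1a, the outer-membrane carnitine palmitoyltransferase and the rate-controlling step, measured 11.20 and 11.33 in KO, against 11.28 and 11.17 in WT. The groups overlapped, and the 95% confidence interval of its log2 fold change ran from -0.24 to 0.32. Slc25a20, the carnitine-acylcarnitine exchanger of the inner membrane, measured 8.28 and 8.04 in KO, against 8.58 and 8.36 in WT (-0.31 ± 0.14, adjusted p = 0.245). Cpt2, which turns acylcarnitine back into acyl-CoA in the matrix, measured 9.40 and 9.40 in KO, against 9.83 and 9.59 in WT (-0.31 ± 0.13, adjusted p = 0.215). Both genes were lower on both KO arrays. Cpt1c, a brain-type paralog of the endoplasmic reticulum, had a log2 fold change of -0.16 (-0.45 to 0.13).

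The mitochondrial acyl-CoA dehydrogenases, which make the first double bond on chains of different length, had KO values below WT values in 4 of 4 genes, against 22.4% of all genes, and none passed. Of 8 related acyl-CoA dehydrogenases outside the 38 genes, such as Gcdh and Ivd of amino acid breakdown, 2 lay lower and 2 higher on both KO arrays and 4 overlapped, with a median of -0.01 and none past the test. Acads, of short chains, measured 9.21 and 8.92 in KO, against 9.43 and 9.38 in WT (-0.34 ± 0.13, adjusted p = 0.206). Acadl, of long and branched chains, measured 9.93 and 9.80 in KO, against 10.28 and 10.06 in WT (-0.31 ± 0.13, adjusted p = 0.220). These log2 fold changes were small beside those of Scp2 and Acox3. Acadvl, of very long chains, measured 7.82 and 7.74 in KO, against 8.02 and 7.88 in WT. Acadm, of medium chains, measured 10.37 and 10.38 in KO, against 10.56 and 10.47 in WT. Their log2 fold changes were -0.17 and -0.14, with confidence intervals that include 0.

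The electron carriers that take electrons from these dehydrogenases to the respiratory chain had unlike values. Etfb, the beta subunit of electron transfer flavoprotein, measured 10.18 and 9.97 in KO, against 10.61 and 10.42 in WT. Both KO arrays were lower, and its log2 fold change of -0.44 ± 0.13 (adjusted p = 0.139) was the largest decrease among mitochondrial genes without passing the test. The alpha subunit Etfa, its partner, had a log2 fold change of 0.0032 (95% confidence interval -0.27 to 0.28). Within each array the log2 difference of Etfb minus Etfa was 0.78 and 0.57 in KO and 1.15 and 1.09 in WT. This gap follows from the lower KO values of Etfb and adds nothing to them. Etfdh, the oxidoreductase that accepts electrons from the flavoprotein, had a log2 fold change of -0.18 (-0.48 to 0.12).

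The hydratase, dehydrogenase and thiolase steps showed the least difference. Hadha, the alpha subunit of the trifunctional protein of long chains, measured 10.85 and 10.86 in KO, against 10.81 and 10.81 in WT. Hadhb, the beta subunit with the thiolase, measured 10.37 and 10.35 in KO, against 10.41 and 10.29 in WT. The log2 fold changes were 0.04 and 0.01, with 95% confidence intervals of -0.21 to 0.30 and -0.26 to 0.28, and a further probe set of Hadhb gave 0.02. Hadha minus Hadhb within each array was 0.48 and 0.50 in KO and 0.40 and 0.52 in WT on the log2 scale, with overlap. These genes stand head to head, and their promoter windows share the 228 bases printed above. Hadh, Echs1 and Acaa2, the enzymes of shorter chains, had log2 fold changes of 0.06, -0.02 and 0.01. All 5 genes lay between -0.02 and 0.06, and none of their intervals reached beyond -0.44 or 0.39.

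The array pairs differed in how the mitochondrial genes behaved within WT. All 17 mitochondrial genes were higher in WT replicate 1 than in WT replicate 2. The median of replicate 2 minus replicate 1 was -0.14 for these genes, about as large as their median between genotypes. It was -0.11 for peroxisomal genes and -0.04 for all genes. Among peroxisomal genes 10 of 17 were higher in WT replicate 1. The median log2 fold change of mitochondrial genes was -0.06 without WT replicate 1, -0.18 without WT replicate 2, -0.18 without KO replicate 1 and -0.04 without KO replicate 2. That of peroxisomal genes stayed between -0.15 and -0.20 in the same 4 fits. Leydig cell markers were also higher in WT replicate 1, with a median of -0.73 for replicate 2 minus replicate 1. The same median was -0.35 for spermatocyte and spermatid, -0.11 for Sertoli cell and -0.09 for adipocyte markers. It was 0.25 for macrophage markers and 1.75 for those of epididymis and rete testis. The part of these markers in the values was not tested.

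**Figure D3:**
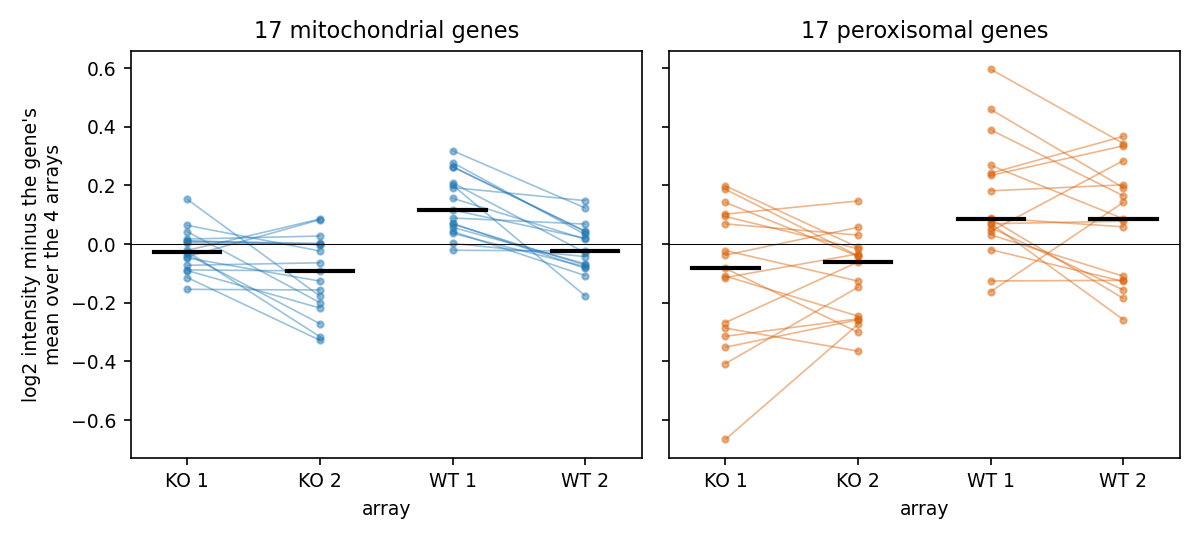
Log2 intensity minus each gene's mean over the 4 arrays (y axis) for each array (x axis), in mitochondrial genes (left) and peroxisomal genes (right). Thin lines join the replicates of 1 genotype for each gene and thick bars are medians. Mitochondrial medians were -0.03 and -0.09 in KO against 0.12 and -0.02 in WT, and peroxisomal medians -0.08 and -0.06 in KO against 0.09 and 0.09 in WT.

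Further genes of these pathways were taken from lists written with earlier results of these data known. Among 44 other peroxisomal genes, 1 rose, 2 fell and 41 did not pass, with a median of -0.05 against 0.07 for all genes. These are shares of 2.27% higher and 4.55% lower, against 0.963% and 2.14% of all genes, and they rest on 3 genes. Both KO arrays lay below both WT arrays in 15 of the 44 and above them in 10, against 22.4% and 36.8% of all genes. Far2, a fatty acyl-CoA reductase of ether lipid and wax synthesis, measured 6.28 and 7.33 in KO, against 8.87 and 8.62 in WT. It fell 3.84-fold (log2 fold change -1.94 ± 0.31, adjusted p = 0.0294), and the KO replicates differed widely. Pxmp2, a channel protein of the peroxisomal membrane, measured 7.19 and 7.07 in KO, against 7.74 and 7.86 in WT (-0.67 ± 0.12, adjusted p = 0.0365). Acoxl, an acyl-CoA oxidase-like gene, measured 7.59 and 7.62 in KO, against 6.88 and 7.03 in WT. It rose by 0.65 ± 0.12 on the log2 scale (adjusted p = 0.0383). Without WT replicate 2 the adjusted p of Pxmp2 was 0.0925, and without WT replicate 1 that of Acoxl was 0.0817. Far2 did not pass with a robust prior (adjusted p = 0.115), nor Acoxl after quantile normalization (0.0639), and none of the 3 did with 16 subtracted before log2 (0.0555 to 0.0612).

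Among 36 other mitochondrial genes of fatty acid, branched-chain amino acid and ketone metabolism, 1 rose, none fell and 35 did not pass, with a median of -0.05. The share called higher was 2.78%, against 0.963% of all genes, and rests on 1 gene. Both KO arrays lay below both WT arrays in 14 of the 36 and above them in 5, against 22.4% and 36.8% of all genes. The gene that rose was Bdh1, which interconverts the ketone bodies acetoacetate and beta-hydroxybutyrate. It measured 9.34 and 9.47 in KO, against 7.71 and 7.27 in WT (3.77-fold higher, adjusted p = 0.00475).

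Of 26 regulators and their classical targets, 2 rose, none fell and 24 did not pass, with a median of 0.07, equal to that of all genes. The share called higher was 7.69%, against 0.963% of all genes, and rests on 2 genes. Prkaa2, the alpha2 catalytic subunit of AMP-activated protein kinase, which favours fatty acid entry into mitochondria, measured 9.63 and 10.003 in KO, against 8.48 and 8.28 in WT. It rose 2.71-fold (95% confidence interval 2.08 to 3.53, adjusted p = 0.00884). Ppargc1a, the coactivator PGC-1alpha of oxidative metabolism genes, measured 8.61 and 8.87 in KO, against 7.69 and 7.62 in WT. It rose 2.12-fold (1.71 to 2.63, adjusted p = 0.0115). Prkaa2 and Ppargc1a were higher on both KO arrays, as were Hadha and Acox2 of the 38 oxidation genes. None of the 38 was called higher, and a link to the regulators was not tested. When either KO array was left out, none of these 6 genes passed: the adjusted p was between 0.0847 and 0.187 without KO replicate 1 and between 0.0503 and 0.240 without KO replicate 2.

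**Figure D4:**
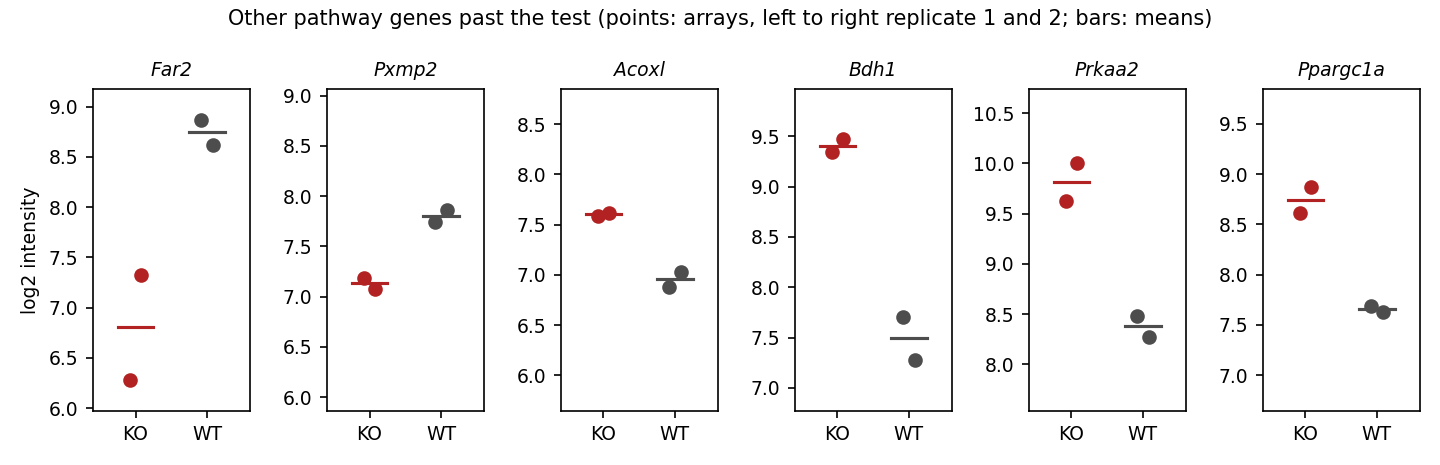
Log2 intensity (y axis) on each array for the 6 further pathway genes past the test, KO left and WT right in each panel, with bars for group means. Far2 and Pxmp2 lie lower in KO, and Acoxl, Bdh1, Prkaa2 and Ppargc1a lie higher, with no overlap between groups in any panel. All y axes span the same number of log2 units but start at different levels.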

How the data were processed

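The deposited table holds 1 linear intensity per probe set and array for 28856 probe sets, and the lowest was just over 16. Per the labels' protocols, total RNA was converted to sense-strand cDNA and labelled with biotin. The submitters' processing notes name mm9, and how probes were summarized, background-corrected or normalized is not given in the sources used here. Values added to or subtracted from signals before deposit would compress folds of weak genes.

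Deposited intensities were taken to log2. The 21789 probe sets with 1 gene symbol gave 19938 genes, by the highest mean. Genes were compared with limma 3.58.1 in R 4.3.3 (lmFit, eBayes, two-sided), with Benjamini-Hochberg adjustment over all genes at 0.05. On simulated arrays of 19938 genes this test recovered 76% of changes by 1 log2 unit, and 99% of changes by 2 log2 units, and called 11 unchanged genes. Changes below 1 log2 unit, as in each of the 38 genes, were not simulated, so these shares do not apply to them.

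The member genes, lists and tests were chosen with earlier results of these data known. Values on all arrays are printed for genes past the test, the next 12 by p and a fixed set; of each further list, up to 6 past the test. Alternatives covered normalization, centring, dim genes, probe sets, the prior, the floor, a replicate block, the threshold and each array.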

Additional observations from a re-analysis of the deposited data

How the results depend on the processing

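The medians of mitochondrial and peroxisomal genes were below 0 in all 13 alternatives that give one, and 22 of 24 genes with lower KO values kept their direction in all 13 alternatives run for single genes. Of the 38 genes, 34 were called in none. The count of these genes called lower was 2, and it was 1 after quantile normalization, 4 with the lowest 25% of genes left out, 4 with eBayes with trend, 4 with a robust prior, 4 with 32 added before log2, 4 at an adjusted p under 0.1, and 0 with 16 subtracted before log2. The added calls were Acox3 and Pex11a. Leaving out 1 array gave 0 to 2, with 0 without either KO array. Pex5 had an adjusted p of 0.0711 after quantile normalization. The peroxisomal median was -0.24 with the lowest 25% of genes left out, where Acaa1b is no longer among the genes. In that fit the median of all genes was 0.02. After quantile normalization the medians were closer to 0, at -0.0815 for mitochondrial and -0.0767 for peroxisomal genes. Over all genes 192 were called higher and 426 lower, against 103 and 269 with 16 subtracted and 482 and 762 at an adjusted p under 0.1. Leaving out 1 array gave 2 to 313 higher and 16 to 726 lower, with the lowest counts without a KO array and the highest without WT replicate 1. The causes were not tested.

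Replicate numbers are shared between the genotypes, but same-numbered arrays did not deviate together (correlation 0.0205 over 19938 genes), so the numbers are not taken as pairs. With the replicate number as a block, 0 of the 38 genes were called, with adjusted p = 0.0594 for Scp2 and 0.0630 for Pex5, and neither Pxmp2 (0.0609) nor Acoxl (0.0559) passed, while 173 genes were higher and 399 lower over all genes.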

Other observations

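Genes that neighbour the 4 oxidation genes with the lowest p-values were looked up in the gene order of GRCm38.p6, after the values had been seen, and none of the 8 passed the test. Pex11a stands beside Plin1, the perilipin that coats lipid droplets. Plin1 measured 8.25 and 8.55 log2 intensity units in KO, against 7.82 and 7.84 in WT, a log2 fold change of 0.57 ± 0.14 (limma adjusted p = 0.0861). Both KO arrays lay above both WT arrays in Plin1 and below them in Pex11a. On its other side lies Wdr93 (0.11 ± 0.13, adjusted p = 0.607), which overlaps Pex11a in the annotation. Pex5 stands between Cd163, a macrophage scavenger receptor (-0.35 ± 0.12, adjusted p = 0.174), and Clstn3, a calsyntenin (0.32 ± 0.12, adjusted p = 0.203). Scp2 stands between Podn (-0.20 ± 0.11, adjusted p = 0.321) and Echdc2, an enoyl-CoA hydratase domain gene (0.13 ± 0.12, adjusted p = 0.521). Acox3 stands between Trmt44 (0.07 ± 0.11, adjusted p = 0.713) and Htra3 (0.32 ± 0.16, adjusted p = 0.280).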
